A study of Mus musculus with 8 samples.

Results

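The genes described here encode the anaphase-promoting complex or cyclosome (APC/C), its coactivators and inhibitor, the spindle assembly checkpoint and the proteins that these control at the metaphase to anaphase transition. They were chosen as a list of 32 mouse gene symbols by their role, at a time when earlier results of these data were known, and all 32 were found among the 50686 Ensembl gene identifiers of the count table, 1 identifier each. Anapc15 was matched through an older symbol. The cells were mouse embryonic stem cells (mESCs) of 2 genotypes, wild type (R9wt) and Rad9-/- (R9del). Both genotypes were cultured for 1 day (D1) or 5 days (D5), either aboard the SJ-10 satellite (Space) or on the ground in the same type of payload device (Ground). RNA of the 8 resulting combinations was sequenced as 8 libraries, 1 for each, so that every comparison of 4 libraries with 4 treats libraries that differ in the other conditions as replicates. The p-values therefore measure the spread between these libraries. The space cultures also went through launch and return, and the devices for D1 and those for D5 were held apart, with their own temperature control and different seeding numbers. For D5 the seeding number also differed between R9wt and R9del. These conditions cannot be told apart from location, day and, at D5, genotype.

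The APC/C is a ubiquitin ligase of many subunits that marks mitotic proteins for destruction by the proteasome. It works with an exchangeable coactivator, Cdc20 in early mitosis and Cdh1, the product of Fzr1, from late mitosis through G1. While kinetochores lack microtubules, the spindle checkpoint proteins Mad2, BubR1 and Bub3 hold Cdc20 in an inhibitory complex. Once the checkpoint is satisfied, APC/C with Cdc20 marks securin and cyclin B1, which releases separase to cut cohesin. Mouse embryonic stem cells divide quickly with a short G1 phase, and their mitotic genes are highly expressed.

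Library totals lay between 58238440 and 96416907 counts, and the 32 genes together took 0.428% to 0.563% of the counts of a library. No member was near the limit that a count of 0 allows, which is 3 counts or at most 0.0515 counts scaled to library size (CPM), and which covers counting error only. Rad9a, the targeted gene, had 70.3 to 93.4 CPM in the R9wt libraries and 20.8 to 28.6 CPM in the R9del libraries. The 10 embryonic stem cell markers were all detected in every library, and their summed level was 4490 to 6140 CPM in space and 5480 to 8250 CPM on the ground. Among the markers of other cell types, trophoblast genes summed to 121 to 267 CPM at D1 and 383 to 2470 CPM at D5. The sums came mainly from the keratins Krt8 and Krt18. Of the trophoblast factors, Cdx2 did not exceed 2.93 CPM and Elf5 did not exceed 0.4259 CPM. Gata3 was higher in R9wt at D5, with 30.38 CPM on the ground and 86.34 CPM in space. At D1 its R9wt levels were 3.001 and 7.75 CPM in the same order. In R9del, Gata3 was at 6.459 and 21.58 CPM at D1 and at 9.567 and 9.037 CPM at D5, again ground first. The summed fibroblast markers were at 22.9 to 50.8 CPM and the primitive endoderm markers at 10.3 to 81.6 CPM. Between space and ground, Esrrb rose (log2 fold change 1.16, adjusted p = 0.00796) and Sox2 fell (-0.97, adjusted p = 0.0269) among the 10 stem cell markers, of which 3 had values above 0 and 7 below (median -0.45), and Sox17 (-3.92) and Cdx2 (-3.02) fell among the others. The rest of their lists did not pass and lay on the other side of 0: of 5 primitive endoderm genes 4 had values above 0 (median of the list 0.98), and of 4 trophoblast genes tested 3 did (median 0.42). Of 4 mesendoderm genes, none of which passed, 3 had values below 0 (median -0.76). The part of these markers in the results below was not tested.

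All 32 genes were expressed in all libraries. Per kilobase of exon, the mean level over the 8 libraries was highest for Cdc20 at 190 CPM per kb, followed by the checkpoint gene Bub3 at 179, the kinase gene Plk1 at 131, the inhibitor gene Fbxo5 at 122 and the subunit gene Anapc5 at 114. It was lowest for the subunit genes Cdc26 at 4.58, Anapc1 at 6.34 and Cdc27 at 6.35 CPM per kb. The order at the top differed between libraries. Bub3 was at 163.2 and Cdc20 at 113.7 CPM per kb in Space R9wt D5, against 171.1 and 249.2 in Ground R9del D1. Exon length here was that of all annotated exons of a gene merged: 7180 bases for Cdc26, 16714 for Anapc1 and 2750 for Anapc5. It can exceed the length of the transcript expressed, so the order of genes also depends on the annotation. On this scale, subunit genes whose proteins stand in 1 complex covered a wide range.

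**Figure D1:**
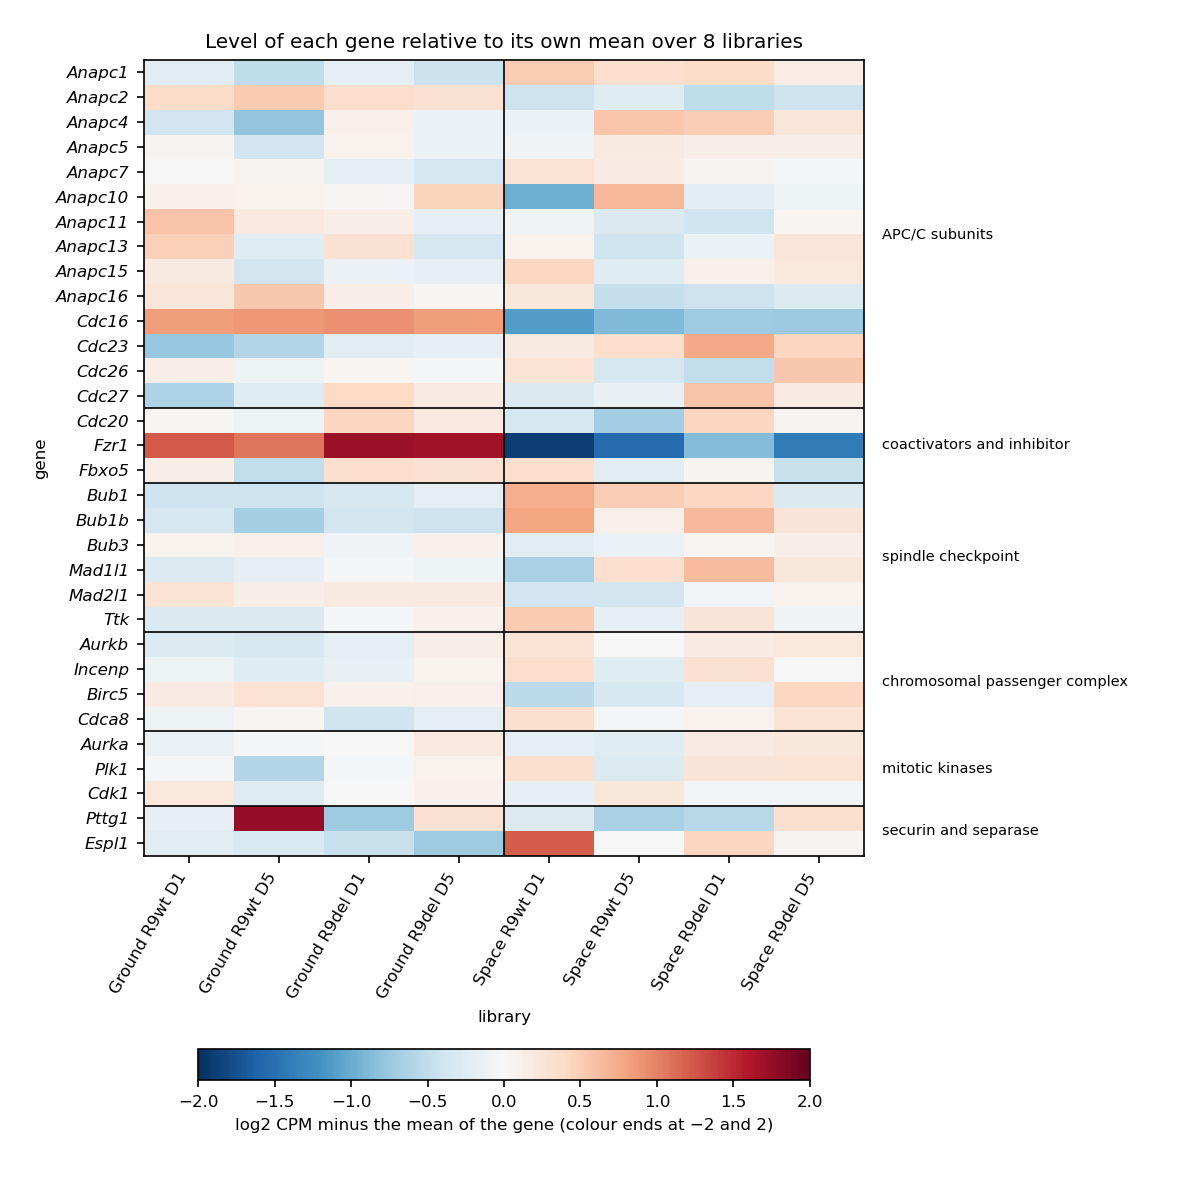
Level of each of the 32 genes (rows, grouped by role) in each library (columns), as log2 CPM minus the mean of that gene over the 8 libraries; red is above and blue below the mean. Fzr1 and Cdc16 are above their mean in the 4 ground libraries and below it in the 4 space libraries, and Pttg1 stands high in the Ground R9wt D5 library.

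The first comparison asked which genes differed between cells cultured in space and on the ground. Of the 32 genes, 3 were lower in space (Fzr1, Cdc16 and Anapc2) and 3 were higher (Bub1b, Cdc23 and Anapc1) at an adjusted p under 0.05 (edgeR's quasi-likelihood test, Benjamini-Hochberg adjustment over all genes). Among the 20473 genes tested, 5.32% were called lower and 1.01% higher, 6.33% in all. The median log2 fold change of the 32 genes was 0.09, against 0.01 over all genes tested, with 17 values above 0 and 15 below. In bulk RNA, fewer cells of a type and less RNA per cell cannot be told apart.

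Fzr1, which encodes the coactivator Cdh1, had the largest difference of the 32 genes. On the ground it was at 182.2 CPM in R9wt D1, 164.3 in R9wt D5, 257.6 in R9del D1 and 249.8 in R9del D5. In space it was at 20.95, 26.88, 42.61 and 29.44 CPM in the same order. The highest space library was thus far below the lowest ground library. Fzr1 fell from a mean of 213.5 ± 47.1 CPM to 29.97 ± 9.15 CPM (SD, n = 4 each), a 7.12-fold difference, with a log2 fold change of -2.83 (SE 0.28) and an adjusted p of 2.28e-04. The gene lies on chromosome 10 (mm9, 80828967 to 80841261, minus strand), 0.0% of the 50-base stretches of its 12 merged exons recur elsewhere in the genome, and 0.1% of their length overlaps another gene.

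Cdc20, which encodes the other coactivator, was at 351.5, 319.1, 465.5 and 394.1 CPM on the ground and at 270.5, 212.4, 463.8 and 357.2 CPM in space. The groups overlapped, and the log2 fold change was -0.23 (SE 0.26, adjusted p = 0.711). Over the 16 alternative settings the value for Cdc20 ranged from -0.45 to -0.066, and it passed in 0 of them. Expressed per kilobase of exon, the ratio of Fzr1 to Cdc20 was 0.214 to 0.264 in the ground libraries and 0.0322 to 0.0527 in the space libraries. Fbxo5, which encodes the APC/C inhibitor Emi1, ranged from 169.8 to 299.9 CPM on the ground and from 175.3 to 303.8 CPM in space.

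Among the 14 genes for APC/C subunits, 2 fell, 2 rose and 10 did not pass the test. Cdc16, which encodes the tetratricopeptide repeat subunit APC6, was at 216.3, 223.0, 228.5 and 216.6 CPM on the ground and at 55.88, 66.21, 74.18 and 73.50 CPM in space. The ground libraries were nearly equal, and every space library was far below them. Cdc16 fell 3.28-fold, from 221.1 ± 5.84 to 67.4 ± 8.51 CPM (SD, n = 4 each), with a log2 fold change of -1.71 (SE 0.17, adjusted p = 2.55e-04). It lies on chromosome 8 (mm9, 13757676 to 13781938, plus strand), 0.0% of the 50-base stretches of its 18 merged exons recur elsewhere in the genome, and no other gene overlaps them.

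Anapc2, which encodes the cullin subunit of the catalytic core, was at 120.0, 133.8, 117.9 and 114.9 CPM on the ground and at 69.7, 78.7, 65.4 and 69.9 CPM in space. The groups did not overlap. Anapc2 fell 1.71-fold, with a log2 fold change of -0.78 (SE 0.17, adjusted p = 0.0198). The gene lies on chromosome 2 (mm9, 25127998 to 25141435, plus strand). Its call was lost, with an adjusted p of 0.0529 to 0.0707, when any of the libraries Ground R9wt D1, Ground R9del D1, Ground R9del D5, Space R9del D1 or Space R9del D5 was left out. Fzr1 and Cdc16 kept their calls under all 16 alternative settings, with adjusted p-values of at most 0.00183 and 0.0019.

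Cdc23, which encodes the tetratricopeptide repeat subunit APC8, was at 123.0, 139.7, 180.5 and 186.3 CPM on the ground and at 237.5, 267.2, 353.5 and 280.2 CPM in space. The groups did not overlap. Cdc23, on chromosome 18, rose 1.81-fold (log2 fold change 0.85, SE 0.21, adjusted p = 0.0405). Of the exons of Cdc23, 13.3% overlap Kif20a on the other strand, and Kif20a, which encodes a mitotic kinesin, was itself higher in space (log2 fold change 0.76, SE 0.17, adjusted p = 0.0263). The handling of strand in the counting is not given in the sources used here, so reads of the shared stretch cannot be assigned to either gene.

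Anapc1, which encodes the largest scaffold subunit, was at 87.4, 71.97, 90.2 and 76.0 CPM on the ground and at 146.2, 129.7, 132.6 and 113.9 CPM in space. All space libraries were above all ground libraries. Anapc1 rose 1.6-fold (log2 fold change 0.68, SE 0.17, adjusted p = 0.0477); it lies on chromosome 2 (mm9, 128435840 to 128513127, minus strand). The call of Anapc1 was lost when any 1 of the 8 libraries was left out (adjusted p 0.066 to 0.147). That of Cdc23 held only without Space R9wt D1 (adjusted p = 0.0425) and was lost without any other library (0.0663 to 0.116). With no filter on low counts, edgeR's test lost the calls of both Cdc23 (adjusted p = 0.0699) and Anapc1 (0.0967).

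The other subunit genes did not pass. Anapc4, a scaffold subunit gene, came nearest, at 35.1 to 65.2 CPM on the ground and 56.2 to 89.3 CPM in space (log2 fold change 0.58, adjusted p = 0.241). Anapc5, another scaffold gene, was at 240.5 to 327.0 and 298.1 to 355.6 CPM. The genes of the tetratricopeptide repeat subunits Anapc7 and Cdc27 were at 53.8 to 71.3 and 24.9 to 50.9 CPM on the ground, and at 68.1 to 84.2 and 31.3 to 57.3 CPM in space. Anapc11, whose RING protein recruits the ubiquitin-conjugating enzyme, was at 88.1 to 146.8 CPM on the ground and 75 to 101.5 CPM in space, and Anapc10, whose protein helps bind substrates, was at 47.2 to 63.1 and 23.6 to 73.7 CPM. Of the other small subunit genes, Anapc13 was at 6.67 to 11.8 CPM on the ground and 6.41 to 9.94 CPM in space, Anapc16 at 14.9 to 21.3 and 10.6 to 17.3 CPM, Cdc26 at 29.9 to 35.1 and 22.9 to 46.6 CPM, and Anapc15 at 47.5 to 69.2 and 52.1 to 81.4 CPM. The exons of Anapc15 overlap the gene Tomt over 41.8% of their length and those of Anapc13 overlap Cep63 over 12.6%, both on the other strand.

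**Figure D2:**
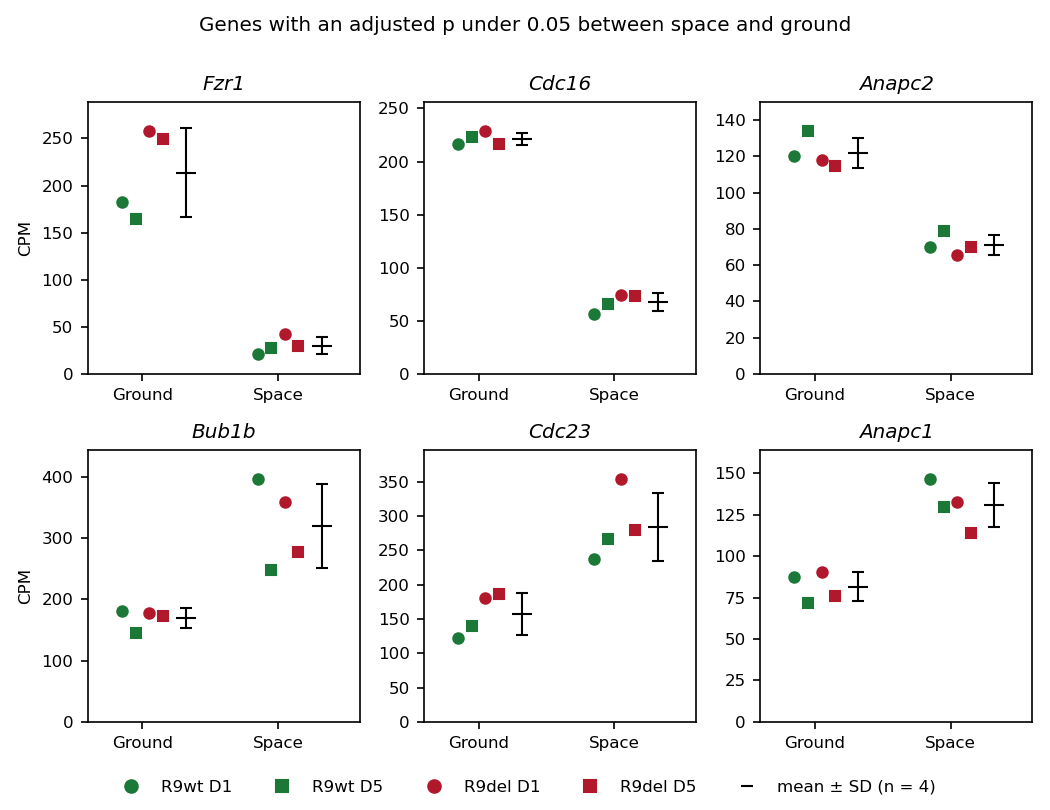
CPM (y axis) of the 6 genes called between space and ground, with 1 point for each library (colour for genotype, shape for day) and the mean ± SD of the 4 libraries of a location beside them. In all 6 genes the space and ground libraries do not overlap; Fzr1 shows the widest gap, with 20.95 to 42.61 CPM in space and 164.3 to 257.6 CPM on the ground.

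Of the 6 spindle checkpoint genes, 1 rose and 5 did not pass. Bub1b, which encodes the checkpoint protein BubR1, was at 181.6, 145.8, 178.2 and 172.5 CPM on the ground and at 396.1, 248.0, 359.4 and 276.8 CPM in space. All space libraries were above all ground libraries, and within space the D1 libraries were above the D5 libraries. Bub1b rose 1.89-fold, from 169.5 ± 16.3 to 320.1 ± 69.3 CPM (SD, n = 4 each), with a log2 fold change of 0.92 (SE 0.20, adjusted p = 0.0237). It lies on chromosome 2 (mm9, 118423947 to 118467328, plus strand). Its call was kept without Space R9wt D5 or Space R9del D5 and lost without any other library (adjusted p 0.0528 to 0.0781).

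Bub1, the kinase gene that recruits other checkpoint proteins to kinetochores, was at 120.7, 120.5, 129.1 and 141.5 CPM on the ground and at 266.4, 227.1, 214.6 and 131.3 CPM in space. In 3 pairs Bub1 was higher in space and the R9del D5 pair was not. The log2 fold change of Bub1 was 0.71 (SE 0.23, adjusted p = 0.107). Bub1 passed in 4 of 16 alternatives (lowest adjusted p 0.0274), which were DESeq2's Wald test, GC offsets with and without the matched pairs as a block, and the fit without Space R9del D5. Mad2l1, which encodes Mad2, was at 183.5 to 204.5 CPM on the ground and 129.4 to 177.9 CPM in space, without overlap, with a log2 fold change of -0.36 (SE 0.18, adjusted p = 0.317). Bub3, Mad1l1, whose protein anchors Mad2 at kinetochores, and the checkpoint kinase gene Ttk overlapped between locations, at 351.5 to 394.8, 54.5 to 65.0 and 65.1 to 84.3 CPM on the ground and 313.5 to 397.2, 42.1 to 102.7 and 69.6 to 114.9 CPM in space.

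None of the genes of the chromosomal passenger complex, which corrects wrong kinetochore attachments, and none of the mitotic kinase genes passed the test. Aurkb, the kinase gene of the complex, was at 121.0 to 167.0 CPM on the ground and 153.4 to 183.8 CPM in space, and the scaffold gene Incenp at 179.1 to 221.6 and 178.0 to 268.2 CPM. Birc5, which encodes survivin, was at 184.3 to 212.6 and 120.8 to 231.9 CPM, and Cdca8, which encodes borealin, at 151.6 to 203.9 and 196.7 to 248.4 CPM. The kinase genes Aurka, Plk1 and Cdk1 were at 238.1 to 299.5, 188.6 to 298.8 and 196.8 to 270.7 CPM on the ground, and at 219.7 to 304.0, 234.7 to 355.0 and 210.2 to 276.1 CPM in space. Their log2 fold changes were -0.01, 0.29 and -0.02, and the sign for Aurka and Cdk1 flipped with DESeq2's size factors and with library size alone.

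Espl1, which encodes separase, was at 156.3, 148.4, 134.1 and 112.0 CPM on the ground and at 422.9, 181.8, 246.2 and 189.7 CPM in space. The groups did not overlap, but the space libraries were widely spread, and the log2 fold change of 0.92 (SE 0.29) had an adjusted p of 0.0983. Espl1 was higher in space in 4 of 4 pairs and passed in 3 of 16 alternatives (lowest adjusted p 0.0303), which were DESeq2's Wald test, the other 2 conditions as covariates, and GC offsets with the matched pairs as a block. Without Space R9wt D1 its log2 fold change was 0.59 (adjusted p = 0.151). Pttg1, which encodes its inhibitor securin, was at 68.9, 259.8, 46.9 and 95 CPM on the ground and at 63.5, 49.1, 52.3 and 96.2 CPM in space. Only the Ground R9wt D5 library was high (log2 fold change -0.85, SE 0.49, adjusted p = 0.41), and without it the log2 fold change was -0.11 (adjusted p = 0.897).

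At an unadjusted p under 0.05 there were 9 of the 32 genes (18.8% of all genes), 6 higher (7.04%) and 3 lower (11.7%). The direction was the same in 4 of 4 matched pairs for 9 higher genes (14.9% of all genes) and 6 lower genes (18.2%). Groups that did not overlap were seen for 4 genes higher in space (Bub1b, Cdc23, Anapc1 and Espl1), where 5.07% of all genes behaved so, and for 4 lower genes (Fzr1, Cdc16, Anapc2 and Mad2l1), where 9.37% did. The threshold of the study was at least a 2-fold change and p under 0.05, and this p was taken here as before adjustment. It was passed by 2 lower genes (Fzr1 and Cdc16, 8.38% of all genes) and by 0 higher genes (2.58%). In the 4 pairs of single libraries that share genotype and day, which have no replicate, Fzr1 and Cdc16 were at least 2-fold lower in each. These were the 2 of 32 genes past that fold in R9del D1 (12% of all genes) and in R9del D5 (15.1%). In R9wt D1 Anapc10 joined them (3 genes; 19.8% of all genes), and in R9wt D5 Anapc16 and Pttg1 did (4 genes; 19.3%). At least 2-fold higher were Bub1b in R9del D1 (9.09% of all genes), Bub1, Bub1b and Espl1 in R9wt D1 (14.1%), Anapc4 in R9wt D5 (16.8%) and none in R9del D5 (7.85%).

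**Figure D3:**
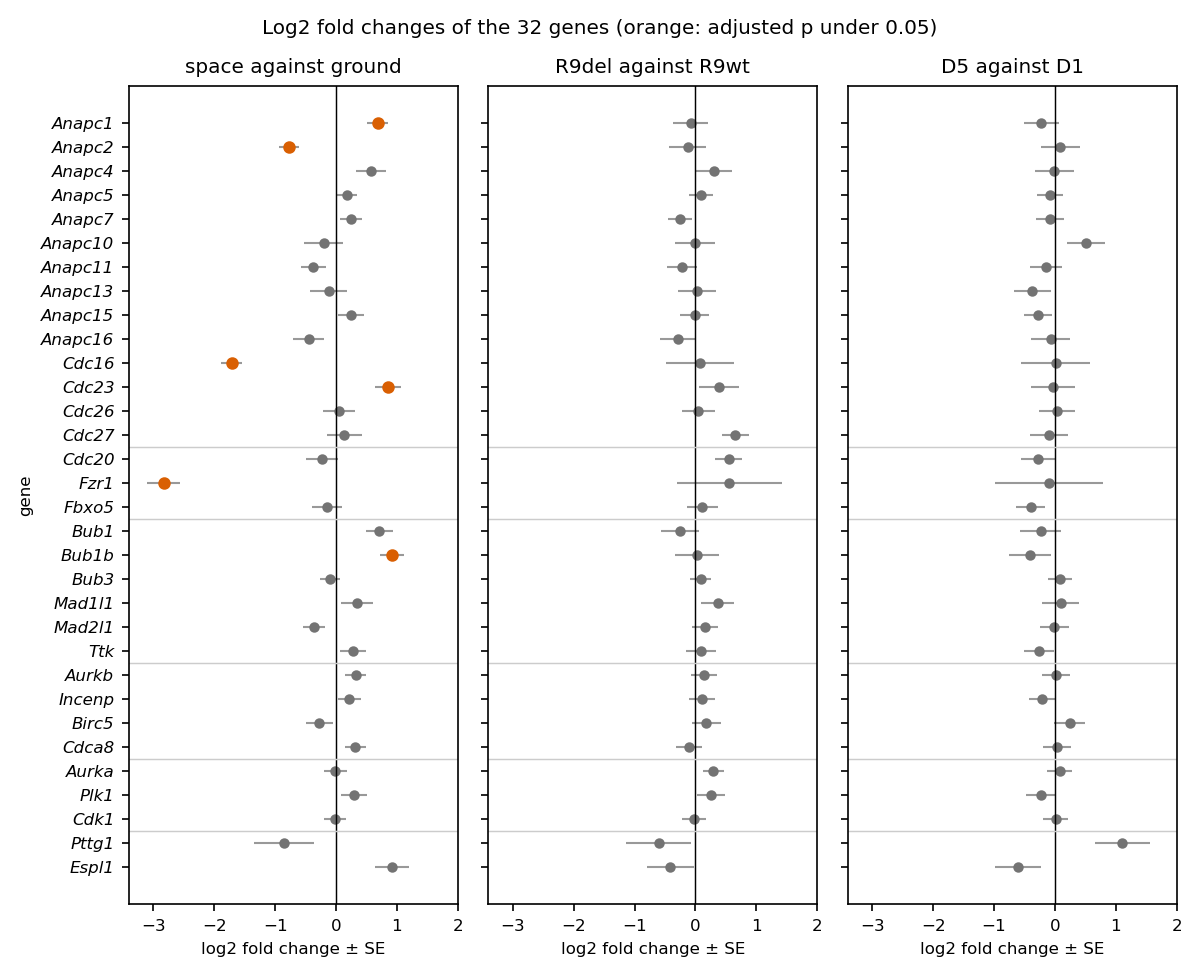
Log2 fold change (x axis) with its standard error for each of the 32 genes (y axis, grouped by role) in the 3 comparisons of 4 libraries with 4; orange marks an adjusted p under 0.05. Orange points appear only for space against ground, where Fzr1 lies at -2.83.

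The genes around the APC/C were read from lists of the same pathway. Of the 5 ubiquitin-conjugating (E2) enzyme genes that work with the complex, 4 fell in space and 1 did not pass. Ube2s, which encodes the enzyme that extends ubiquitin chains, was at 572.6, 751.7, 388.2 and 569.8 CPM on the ground and at 21.37, 21.34, 40.93 and 37.17 CPM in space (log2 fold change -4.24, SE 0.33, adjusted p = 6.94e-05). Ube2d2a, of the family of enzymes that start chains, fell from 269.4 ± 23.0 to 37.6 ± 6.18 CPM (SD, n = 4 each; log2 fold change -2.84, adjusted p = 5.32e-05). Its relatives Ube2d1 and Ube2d3 fell by 1.58 and 1.70 on the log2 scale (adjusted p = 0.0037 and 0.0072). These last 2 were named after their values were seen. Ube2c, which encodes the initiating enzyme of the APC/C in mitosis, was at 198.1 to 306.3 CPM on the ground and 148.7 to 212.0 CPM in space (log2 fold change -0.40, adjusted p = 0.353). Near-identical copies limit these values: 97.3% of the exon sequence of Ube2s, 53.6% of that of Ube2d2a and 27.9% of that of Ube2d3 recurs elsewhere in the mm9 genome in stretches of 50 bases, so their counts are uncertain. For Ube2d1 the share is 0.1%.

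Of 11 genes for APC/C substrates, 1 fell. Ccna2, which encodes cyclin A2, was at 291.7, 171.3, 264.8 and 222.8 CPM on the ground and at 49.3, 47.7, 69.5 and 50.3 CPM in space. The groups did not overlap, and the log2 fold change was -2.13 (SE 0.23, adjusted p = 3.67e-04). The exons of Ccna2 overlap Exosc9 on the other strand over 14.6% of their length. None of 16 outer kinetochore genes, 10 cohesin and shugoshin genes and 5 other regulators passed the test, and their median log2 fold changes were 0.17, 0.17 and 0.11. The median was 0.06 for the substrates and -1.70 for the E2 enzymes.

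Promoters are shown for the 3 genes called lower, Fzr1, Cdc16 and Anapc2, for Bub1b and Anapc1, which rose, and for Cdc20 as the other coactivator. For Cdc23, which also rose, no promoter sequence was found. The sequences are the 250 bases before the annotated start, 5′ to 3′ on the strand of the gene, from RefSeq on GRCm38.p6: chr10:81378371-81378620 (minus strand) for Fzr1, chr4:118437344-118437593 (minus) for Cdc20, chr8:13757406-13757655 (plus) for Cdc16, chr2:25272216-25272465 (plus) for Anapc2, chr2:118597961-118598210 (plus) for Bub1b and chr2:128687396-128687645 (minus) for Anapc1. Capitals mark the cell cycle homology region motif (CHR, TTTGAA or its reverse complement TTCAAA), which is known from mitotic promoters, and the CCAAT box (CCAAT or ATTGG), which is bound by NF-Y.
Fzr1: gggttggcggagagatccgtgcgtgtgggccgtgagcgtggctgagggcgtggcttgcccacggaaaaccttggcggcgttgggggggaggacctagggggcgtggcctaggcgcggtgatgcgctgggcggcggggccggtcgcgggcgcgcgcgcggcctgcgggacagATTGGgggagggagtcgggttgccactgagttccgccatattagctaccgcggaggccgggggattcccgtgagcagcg
Cdc20: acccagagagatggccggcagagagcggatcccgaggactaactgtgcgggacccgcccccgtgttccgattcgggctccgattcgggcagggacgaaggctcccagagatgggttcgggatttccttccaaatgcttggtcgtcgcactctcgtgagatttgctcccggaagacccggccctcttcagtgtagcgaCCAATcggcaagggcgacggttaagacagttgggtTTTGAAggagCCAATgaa
Cdc16: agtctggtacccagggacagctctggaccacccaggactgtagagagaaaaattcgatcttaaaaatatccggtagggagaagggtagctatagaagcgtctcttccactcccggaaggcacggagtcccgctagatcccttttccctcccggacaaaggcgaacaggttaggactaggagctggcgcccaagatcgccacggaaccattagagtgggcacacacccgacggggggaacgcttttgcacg
Anapc2: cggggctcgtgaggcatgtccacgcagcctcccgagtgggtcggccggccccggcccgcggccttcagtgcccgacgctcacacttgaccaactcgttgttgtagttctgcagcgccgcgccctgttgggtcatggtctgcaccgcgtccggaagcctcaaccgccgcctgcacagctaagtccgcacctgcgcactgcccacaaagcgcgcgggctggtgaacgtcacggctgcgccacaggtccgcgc
Bub1b: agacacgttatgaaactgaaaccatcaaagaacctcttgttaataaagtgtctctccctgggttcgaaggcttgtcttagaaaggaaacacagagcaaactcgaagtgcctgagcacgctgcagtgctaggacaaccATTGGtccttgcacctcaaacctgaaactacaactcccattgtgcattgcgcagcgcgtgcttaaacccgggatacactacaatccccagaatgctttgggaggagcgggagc
Anapc1: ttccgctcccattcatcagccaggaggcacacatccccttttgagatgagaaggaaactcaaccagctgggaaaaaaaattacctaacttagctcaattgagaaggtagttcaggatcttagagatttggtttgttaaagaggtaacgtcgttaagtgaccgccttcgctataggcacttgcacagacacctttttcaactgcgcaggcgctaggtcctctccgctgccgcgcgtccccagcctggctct

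The Cdc20 sequence holds a CHR motif 18 bases before the start and 2 CCAAT boxes. Fzr1 holds 1 CCAAT box, 79 bases before the start, and no CHR motif, and Cdc16, Anapc2 and Anapc1 hold neither. Bub1b holds 1 CCAAT box 113 bases before the start, and its CHR motif lies 41 bases after the start, outside the stretch shown. In windows from 250 bases before to 50 bases after the start, searched on both strands, 29 of the 32 genes had a RefSeq window. A CHR motif was present in 12 of the 29 (41.4%), a CCAAT box in 16 (55.2%) and both in 10 (34.5%). Among all 27025 genes with a window the shares were 20.2%, 41.1% and 8.97%. By role, both motifs were present in 3 of 3 mitotic kinase genes, 2 of 3 coactivator and inhibitor genes, 3 of 6 checkpoint genes, 1 of 2 passenger complex genes, 1 of 2 genes for securin and separase and 0 of 13 APC/C subunit genes. Of the subunit genes, 15.4% held a CHR motif and 30.8% a CCAAT box. Differences between roles were not tested. A motif match describes these letters in these windows and is no measure of binding.

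Space to ground differences varied with exonic GC content over all genes, with lower values at both ends of the GC range, so the values of the 32 genes are given beside those of genes of like GC. Fzr1 has 58.9% exonic GC. The median log2 fold change of the 951 genes within 1 percentage point of it was -0.29, and 3.68% of them had a lower value than Fzr1. For Cdc16, at 47.4% GC, the median of its neighbours was 0.16 and 2.23% were lower. For Anapc2, at 54.2% GC, 11.0% were lower. Of the higher genes, 11.6% of the GC neighbours of Bub1b, 10.7% of those of Cdc23 and 14.7% of those of Anapc1 had a larger value. With GC offsets for each library in the fit, Fzr1 was at -2.45 (adjusted p = 9.37e-04), Cdc16 at -1.79 (2.05e-04) and Anapc2 at -0.75 (0.0233). In the same fit Bub1b was at 0.84 against 0.92 without the offsets (adjusted p = 0.0535) and Cdc23 at 0.81 against 0.85 (0.0506), and Bub1 was at 1.01 (0.0274).

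**Figure D4:**
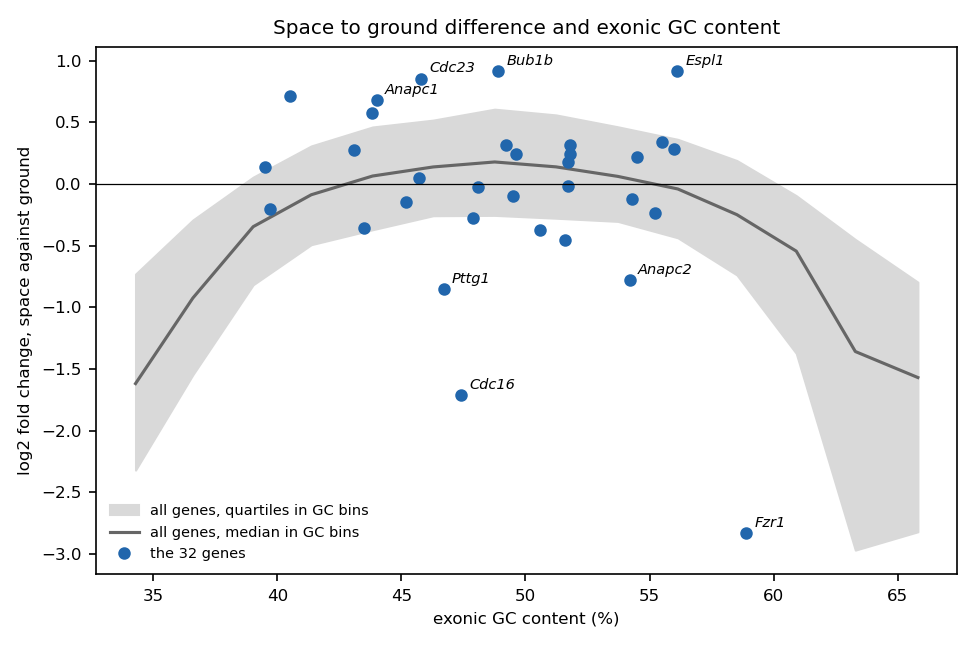
Log2 fold change of space against ground (y axis) by exonic GC content (x axis, percent) for the 32 genes (blue points), with the median and quartiles of all genes in GC bins (line and grey band). Fzr1, at 58.9% GC, and Cdc16, at 47.4% GC, lie furthest below the band. Other genes, among them Anapc2 and Pttg1, also lie below it, and Bub1 and Espl1 are among those above it.

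The second comparison asked which genes differed between R9del and R9wt cells. None of the 32 genes passed an adjusted p under 0.05 by edgeR or by DESeq2's Wald test, while 1.82% of all genes were called by edgeR, 1.05% higher and 0.772% lower. By the threshold of the study there were 0 higher (6.19% of all genes) and 0 lower (7.62%). At an unadjusted p under 0.05 there were 2 of the 32 genes, Cdc27 and Cdc20, and 20.3% of all genes. The median absolute log2 fold change was 0.15 for the 32 genes and 0.48 over all genes, which include many at lower counts.

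Cdc27, which encodes the tetratricopeptide repeat subunit APC3, was at 24.9, 32.5, 31.3 and 34.7 CPM in the R9wt libraries Ground D1, Ground D5, Space D1 and Space D5, and at 50.9, 43.0, 57.3 and 42.9 CPM in the matching R9del libraries. Every R9del library was above every R9wt library. The log2 fold change was 0.65 (SE 0.22, adjusted p = 0.145 by edgeR's quasi-likelihood test). Cdc20 was at 351.5, 319.1, 270.5 and 212.4 CPM in R9wt and at 465.5, 394.1, 463.8 and 357.2 CPM in R9del. The groups did not overlap either, and the log2 fold change was 0.54 (SE 0.22, adjusted p = 0.2). Aurka was at 219.7 to 256.5 CPM in R9wt and 261.9 to 304.0 CPM in R9del (log2 fold change 0.29, SE 0.17, adjusted p = 0.372), and Mad1l1 overlapped between genotypes (0.36, SE 0.27, adjusted p = 0.488). Over the 16 alternatives the value for Mad1l1 ranged from 0.191 to 0.579. Groups that did not overlap were thus seen for 3 genes higher in R9del (7.10% of all genes) and 0 lower (7.19%). All 4 pairs moved the same way for 5 higher genes (19.1%) and 2 lower genes (19.2%). With GC offsets and the matched pairs as a block, Cdc20 passed (log2 fold change 0.63, adjusted p = 0.0447).

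Fzr1 was higher in R9del than in R9wt in each of the 4 pairs, by 0.50 on the log2 scale in Ground D1, 0.60 in Ground D5, 1.02 in Space D1 and 0.13 in Space D5. Its log2 fold change of 0.56 (SE 0.87, adjusted p = 0.765) was from a fit in which location adds to the spread of each genotype group. With the matched pairs as a block it was 0.56 (adjusted p = 0.0986), and with a library left out it ranged from 0.12 without Ground R9del D1 to 1.03 without Ground R9wt D1.

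The third comparison asked which genes differed between D5 and D1. No gene of the 20473 tested passed an adjusted p under 0.05 by edgeR, and 895 (4.37%) had an unadjusted p under 0.05. DESeq2's Wald test called 78 higher and 12 lower genes, none of them among the 32. Pttg1 was the only 1 of the 32 genes with an unadjusted p under 0.05, and the only 1 past the threshold of the study (2.43% of all genes in that direction; 1.06% in the other). Pttg1 was at 46.9, 68.9, 52.3 and 63.5 CPM in the D1 libraries Ground R9del, Ground R9wt, Space R9del and Space R9wt, and at 95, 259.8, 96.2 and 49.1 CPM in the D5 libraries. It was higher at D5 in 3 of 4 pairs and lower in Space R9wt (log2 fold change 1.11, SE 0.45, adjusted p = 1). It no longer passed the threshold of the study when Ground R9wt D5, Ground R9del D1, Space R9wt D1 or Space R9del D1 was left out, or when the matched pairs or the other 2 conditions were in the fit, and without Ground R9wt D5 its log2 fold change was 0.47.

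Anapc10 (log2 fold change 0.51, SE 0.31), Fbxo5 (-0.40, SE 0.24) and Espl1 (-0.60, SE 0.37) came next and did not pass (adjusted p = 1 for each by edgeR's quasi-likelihood test). Without Space R9wt D1 the value of Anapc10 was 0.31 and that of Espl1 -0.20, and without Ground R9del D5 that of Fbxo5 was -0.62. Fbxo5 was lower at D5 in all 4 pairs, at 247.0 to 303.8 CPM at D1 and 169.8 to 294.8 CPM at D5, and the groups overlapped. Espl1 was at 134.1 to 422.9 CPM at D1 and 112.0 to 189.7 CPM at D5. The median absolute log2 fold change was 0.10 for the 32 genes and 0.30 over all genes. No gene of the 32 had groups without overlap, where 1.68% of all genes were higher and 1.17% lower. All 4 pairs moved the same way for 2 higher genes (10.6%) and 5 lower genes (9.49%).

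**Figure D5:**
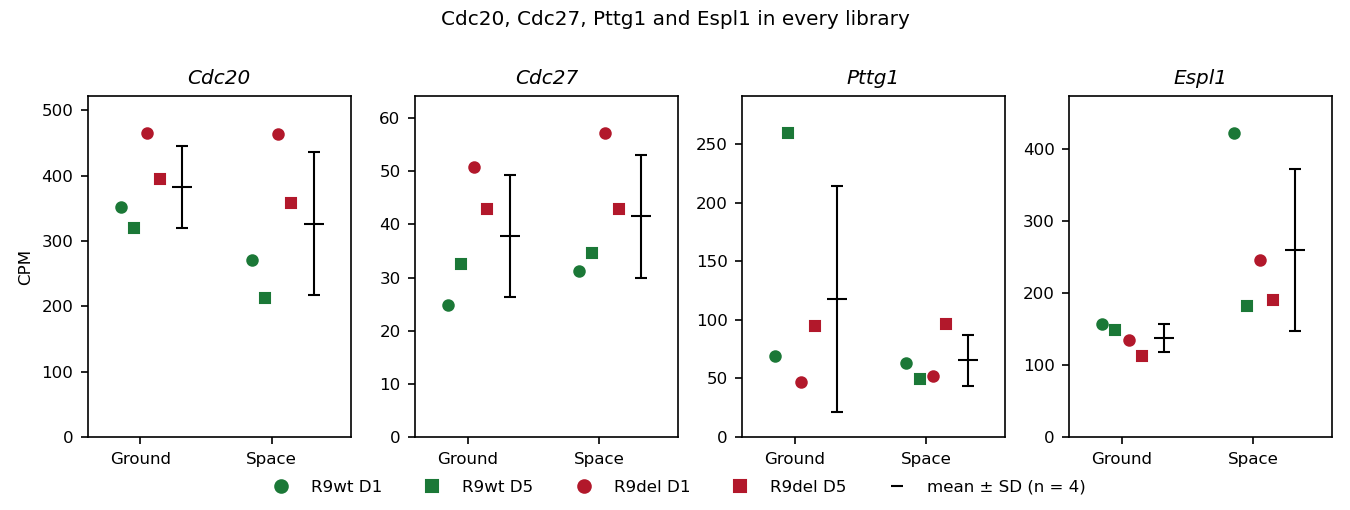
CPM (y axis) of Cdc20, Cdc27, Pttg1 and Espl1 with 1 point for each library (colour for genotype, shape for day) and the mean ± SD of the 4 libraries of a location. R9del points lie above R9wt points for Cdc20 and Cdc27, 1 library (Ground R9wt D5, 259.8 CPM) stands apart for Pttg1, and 1 library (Space R9wt D1, 422.9 CPM) stands apart for Espl1.

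Whether the space to ground difference itself depended on genotype or day was tested by interaction terms. None of the 32 genes passed either test, at an adjusted p under 0.05 or at an unadjusted p under 0.05. When only library size scaled the counts, 1 of the 32 had an unadjusted p under 0.05 for location and genotype. Leaving out a library leaves a combination of the conditions with 1 library, so counts from those fits are not given. Over the 22561 genes tested, edgeR called 0 genes (0%) for location and genotype, with 695 at an unadjusted p under 0.05 (3.08%), and 1 gene (0.00443%) for location and day, with 6.43% at an unadjusted p under 0.05. DESeq2's Wald test called 34 and 76 genes, none among the 32. For Fzr1 the interaction terms were 0.03 (SE 0.39) with genotype and 0.01 (SE 0.38) with day on the log2 scale, and for Cdc16 they were 0.26 (SE 0.32) and 0.12 (SE 0.33). The largest terms were those of Pttg1, at 1.31 (SE 0.69) with genotype and -1.17 (SE 0.69) with day.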

How the data were processed

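RNA of 8 mESC cultures, 1 for each combination of location, genotype and day, was sequenced as paired-end reads. Per the study's methods and processing notes, the authors checked reads with FastQC, aligned them to mm9 with TopHat2 2.0.9 and used edgeR; the deposited values are whole read counts per Ensembl gene, not normalized. The counting program, its annotation and its strand setting are not given in the sources used here.

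Totals were 58238440 to 96416907 counts. TMM factors, CPM, and log2 CPM with a prior count of 2 were computed in edgeR 4.0.16 (R 4.3.3). Genes kept by filterByExpr (minimum count 10) entered edgeR's quasi-likelihood test, with 4 libraries against 4 and no covariate; interactions carried the third condition as a covariate. P-values were adjusted by Benjamini-Hochberg over all genes tested and called under 0.05. Standard errors were derived from the log2 fold change and its F statistic. The fit was tested on simulated data. A first criterion, on how many changed genes were called, was not met, and after this was seen it was replaced by criteria on bias, sign and calibration, which were met. In that test, changes of 2-fold or less were rarely called and larger ones were mostly missed in genes at low levels, so a gene that did not pass may still differ.

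The members and all other gene lists were chosen with earlier results of these data known. By the rule for named genes, each member is given once with its levels. Fold changes are given for members with an adjusted p under 0.05 or, where fewer than 4 passed, for the 4 with the lowest p, and for at most 2 called genes of each pathway list. Fold changes of other members, Kif20a, markers, Ube2c, Ube2d1 and Ube2d3 were added after their values were seen.

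Gene positions, exon lengths, GC content and overlaps came from GENCODE on mm9 (32722 of 50686 identifiers found), and promoters from RefSeq on GRCm38.p6. Matched pairs come from the labels: libraries that share 2 conditions. Their deviations correlated at 0.284 to 0.61 for location, 0.35 to 0.488 for genotype and 0.375 to 0.576 for day, against -0.124, -0.129 and -0.152 for other pairings. Alternatives were other size factors, no filter, DESeq2 1.42.0, the pairs as a block, covariates, GC offsets and leaving out each library.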

Additional observations from a re-analysis of the deposited data

Results flagged for a closer look

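In 84 groups of 4 libraries (the named genes of the 32 in each group of the 3 comparisons), 3 held a library whose CPM lay apart from the others by more than Dixon's 95% critical share of the range. Chance flags about 1 in 20 groups. The groups and the CPM scale were chosen after the values were seen. Pttg1 was at 259.8 CPM in Ground R9wt D5 and at 49.1 to 68.9 CPM in the other R9wt libraries (gap 0.906 of the range). Espl1 was at 422.9 CPM in Space R9wt D1 and at 148.4 to 181.8 CPM in the other R9wt libraries (0.878). Anapc10 was at 63.1 CPM in Ground R9del D5 and at 47.2 to 49.6 CPM in the other ground libraries (0.851). On log2 CPM the gaps were 0.796, 0.806 and 0.831, so only that of Anapc10 passed.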

How the results depend on the processing

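No result changed direction past a threshold. Of the values of the genes named for each comparison over the alternatives, 34 lost a call and 1 (Cdc20 in R9del) gained one. The other 285 stayed on the same side of the threshold, called or not. For space against ground this tally leaves out Bub1 and Espl1, which gained a call in 4 and 3 of 16 alternatives. For space against ground, 3 of the 32 genes were called higher, and the count was 1 with no filter on low counts, 5 with DESeq2's Wald test, 5 with GC offsets and the pairs as a replicate block, and 0 to 2 with a library left out. The count of genes higher by the threshold of the study was 0, and became 1 with library size alone, 2 with GC offsets and 0 to 2 with a library left out. The median log2 fold change of the 32 genes was 0.0941, and was 0.152 with DESeq2's Wald test, 0.161 when only library size scaled the counts, 0.146 with GC offsets and 0.0432 to 0.159 with a library left out. For R9del against R9wt, 1 gene was called higher with GC offsets and the block. For D5 against D1, 1 gene (Pttg1) was higher by the threshold of the study, and 0 were with the replicate block, with covariates, or with GC offsets and the block, and 0 to 1 with a library left out. The cause was not tested.

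Over all genes, space against ground gave 207 higher and 1089 lower calls (16% higher), 104 and 937 with no filter, 360 and 1381 with the pairs as a replicate block, 531 and 1584 with covariates (25.1% higher), 805 and 1576 with DESeq2's Wald test (33.8%) and 435 and 1093 with GC offsets and the block (28.5%). With a library left out there were 51 to 182 higher calls. R9del against R9wt gave 214 and 158, 94 and 63 with no filter, 820 and 855 with the block, 683 and 801 with covariates, 978 and 1067 with DESeq2's Wald test, and 0 without Space R9wt D1, Space R9del D1, Ground R9del D1 or Ground R9wt D5, when Rad9a also lost its call. The block alone changed no call of the 32 genes at an adjusted p under 0.05, but with it Pttg1 no longer passed the threshold of the study for D5. The 4 called genes with differences of under 2-fold (Anapc1, Anapc2, Bub1b and Cdc23) each lost the call with some library left out.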
